A study of Mus musculus with 15 samples.

Results

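The comparison of M3 with Con in mouse testis rests on 6 of the 15 libraries of the series, 3 M3 and 3 Con, and on the 14514 of 23510 listed genes whose mean over all 15 libraries reached 1 FPKM. FPKM counts the sequenced fragments of a gene scaled by the length of its transcript and the mapped total of the library, so it is a share of the library and not an absolute amount. The study asked what each muscarinic acetylcholine receptor does in spermatogenesis, and it measured RNA in whole testis from control mice (Con), after a vector control lentivirus (MNC), and after lentivirus against M1, M3 or M5. All were ICR mice, an outbred stock. In the injected groups the virus went into testes of 5-week-old mice and tissue was taken 10 days later, with 3 short hairpin RNAs mixed for each receptor. Con carried no knockdown virus, and whether Con testes were injected with anything is not given in the sources used here. Nothing in the methods limits the virus to a cell type, and the cells it reached were not measured here. Nothing states which libraries came from separate animals, so the p-values measure the spread between these samples, which may be technical. M3 and Con differed in both the lentivirus and its target, and these cannot be told apart in this comparison. MNC values are therefore given beside many of the results, but not beside all.

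Muscarinic receptors bind acetylcholine, and M3, the product of Chrm3, couples through Gq proteins to phospholipase C and calcium release. The testis makes sperm inside tubules, where Sertoli cells nurse the germ cells and, with their junctions, shield them from the immune system, while Leydig cells between the tubules make testosterone. Interferons, released on viral infection, raise a set of genes for antiviral defence and antigen presentation, among them the interferon-induced GTPases, which act against microbes inside cells.

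The library of M3 replicate 3 stood apart from its group. It lay at least 1 log2 unit outside both of its mates in 202 genes, against 134 for M3 replicate 1, 75 for M3 replicate 2, and 37 to 111 for the Con libraries. In 172 of these 202 genes it was nearer to the M5 mean than to the mean of its mates, and in 148 to that of M1, 125 to that of MNC and 125 to that of Con. A gene in which 1 library is apart often lies nearer to other groups, since of the 134 genes of M3 replicate 1 115 were nearer to M1, 103 to MNC, 96 to Con and 81 to M5, and of the 75 of M3 replicate 2 63, 61, 53 and 48. Across genes, which are not independent replicates, M3 replicate 3 correlated at r = 0.977 and 0.979 with its mates and at 0.98, 0.984 and 0.97 with the 3 M5 libraries. The label was kept, and whether this library carries the right one was not tested. Tmem89 had 31.8 and 27.3 FPKM in M3 replicates 1 and 2 and was listed at 0 in replicate 3, as in M5, whose mean was 0. Fabp3, a fatty acid binding protein, was at 22.4 and 72.6 FPKM in replicates 1 and 2 and listed at 0 in replicate 3, and its M5 mean was 0.28. H2ac23, a histone gene with near-identical copies, was listed at 0 in M3 replicates 1 and 2 and in all Con libraries, and was at 19.1 FPKM in replicate 3, with an M5 mean of 24. These 3 genes thus had M5 levels in that library. Cd5l had not, with 0.20 FPKM in M3 replicate 3 and an M5 mean of 4.44. BC061237 was higher in replicate 3 (29.97 FPKM against 1.23 and 0.23), as was Gm21180 (6.38 against 0 and 0), while Gm10230 was lower (3.90 against 36.8 and 37.4). The last 2 belong to multicopy families and their values are uncertain. Counts are therefore given below with and without this library.

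**Figure D1:**
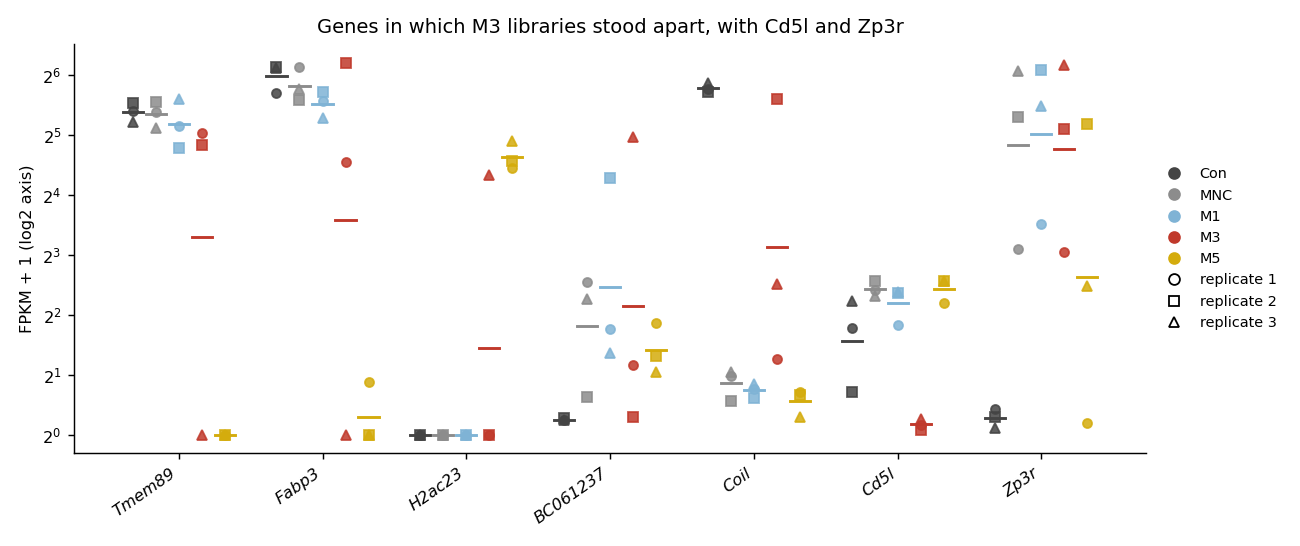
FPKM + 1 on a log2 axis in each of the 15 libraries, by group (colours) and replicate (symbols), with the mean of the log2 values as a bar. M3 replicate 3 had the M5 levels of Tmem89, Fabp3 and H2ac23, and Cd5l was at or below 0.20 FPKM in the 3 M3 libraries.

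The targeted gene was at the edge of detection. Chrm3 was at 0.04, 0.05 and 0.04 FPKM in Con and at 0.08, 0.04 and 0.11 in M3, and the groups overlapped. The difference on the log2(FPKM + 1) scale was 0.045 (exact permutation test, two-sided, p = 0.4, n = 3 each), and 3 against 3 samples cannot give a p below 0.1. A decrease of Chrm3 was not detectable at these levels, so the transcript does not check the labels. Of the other muscarinic genes, 3 were also near 0, and their differences were not significant. Chrm1 averaged 0.130 FPKM in Con and 0.123 in M3 (exact permutation p = 0.7), Chrm2 0.01 and 0.04 (p = 0.2) and Chrm5 0.203 and 0.230 (p = 0.6, n = 3 in each group). Chrm4, the only member above the filter, had 2.91, 2.75 and 3.09 FPKM in Con and 3.97, 4.06 and 2.67 in M3. Its difference of 0.21 on the log2 scale (SE 0.14) was not called (limma adjusted p = 0.279), and its MNC mean was 4.85. With M3 replicate 3 left out it was called higher, by 0.36 (SE 0.08, limma adjusted p = 0.0474).

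Across all genes, limma with Benjamini-Hochberg adjustment called 3210 of 14514 genes between M3 and Con at an adjusted p under 0.05, which is 22.1% of the genes tested. Of these, 1017 were higher in M3 (7.01%) and 2193 were lower (15.1%). The lowest adjusted p was 0.0128, for Adam21 and the class I gene H2-D1, and 6263 genes had an unadjusted p under 0.05. Of the called genes 92 were higher by 1 log2 unit or more (0.634% of the genes tested) and 27 lower by as much (0.186%). The median difference over all genes was -0.13, so a typical gene was slightly lower in M3. After each library was centred on its median, 1847 genes were called (12.7%), 11% of the genes tested higher and 1.77% lower. Of these calls 86.1% were higher in M3, against 31.7% before. Quantile normalization gave 56.6% and removal of the trend with GC content 55.3%. Called in the same direction before and after centring were 1012 higher (6.97%) and 257 lower genes (1.77%), and most lists below are given on both scales. The count also rested on single libraries. Without M3 replicate 3, limma called 2098 genes (14.5%), of which 5.08% of the genes tested were higher and 9.38% lower. The count dropped to 61 when M3 replicate 1 was left out, to 772 for Con replicate 3 and to 1 for Con replicate 2. Leaving out Con replicate 1 gave 0 calls by limma, with 4371 at an unadjusted p under 0.05. Of the 122 called genes named by rule, 76 were also called after centring and 69 without M3 replicate 3. All but 1 of the 3210 called genes kept their sign in every one of the 16 alternatives that tested them. Several of these leave the difference itself unchanged, and all use libraries on which the genes were called. Kept signs are therefore no separate support for the calls.

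Set against the vector control in place of Con, M3 differed in 1 gene, Cd5l, which was lower (0.00689% of the genes tested), while 1369 genes had an unadjusted p under 0.05 by limma. Against M1, limma called 0 genes (672 with an unadjusted p under 0.05), and against M5 it called 2. The other injected groups were also set against the same 3 Con libraries, which gave 2967 called genes for MNC, 4969 for M1 and 3143 for M5. These comparisons share the Con libraries.

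**Figure D2:**
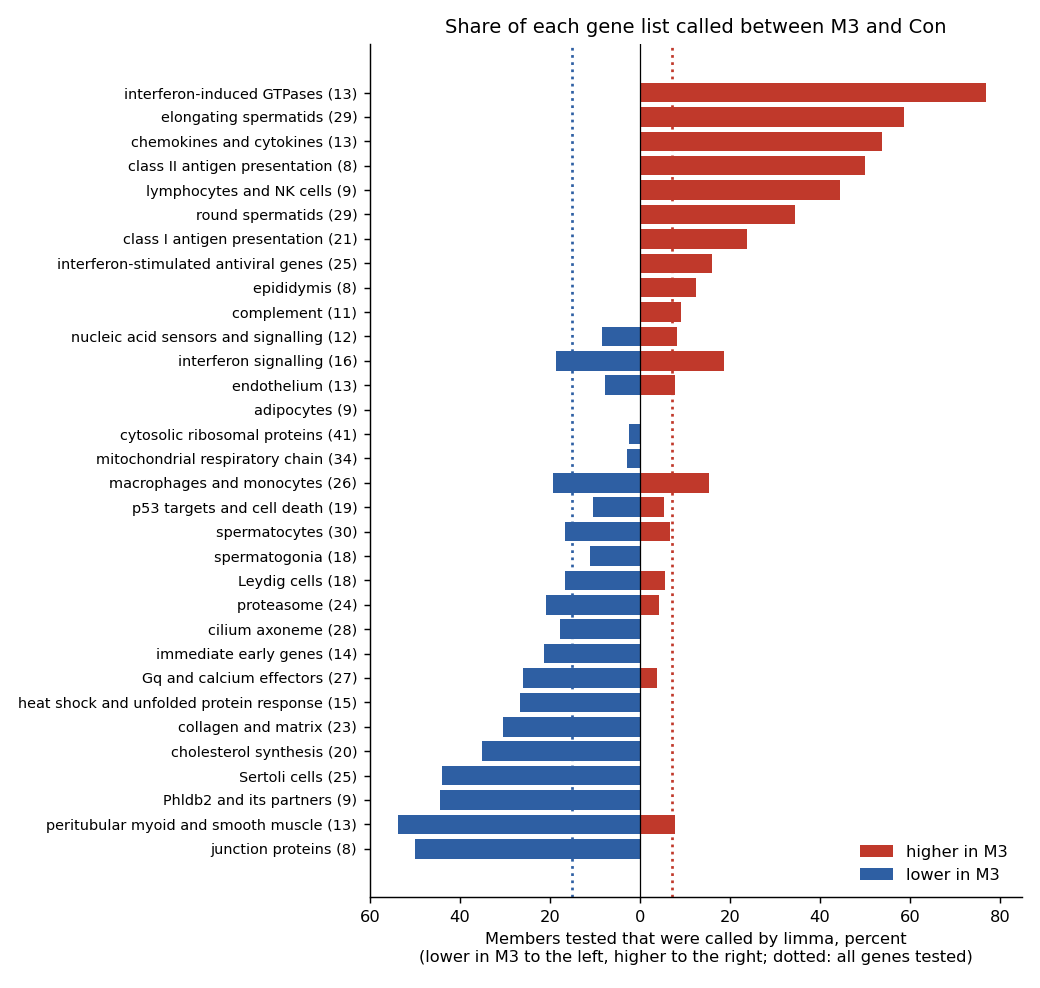
Share of the tested members of each gene list (number in brackets, lists with 8 or more) that limma called higher in M3 (right) or lower (left) than Con, with dotted lines at the shares over all genes tested, 7.01% and 15.1%. Interferon-induced GTPases and elongating spermatid genes lie farthest right, and junction and myoid genes farthest left.

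Most of the interferon-induced GTPases tested were higher in M3 than in Con. Of 13 members tested, 10 rose and 0 fell, 11 and 0 after centring, and 6 and 0 without M3 replicate 3, with a median difference of 1.44 beside -0.13 over all genes. Over all genes tested 7.01% were called higher, 11% after centring and 5.08% without M3 replicate 3. The filter bears on this list, since 9 of the 13 averaged under 1 FPKM in Con and passed through the injected groups. Over all 15 members in the table, M3 had the higher mean in 15. RNA of the bulk tissue was measured, so more or fewer cells of a type and more or less RNA per cell cannot be told apart here or below. Iigp1, whose product attacks the vacuoles that hold parasites and bacteria, had 1.34, 1.04 and 1.06 FPKM in Con and 6.85, 23 and 20.4 in M3. All M3 libraries exceeded all Con libraries, as they did for 12 of the 13 genes. Groups did not overlap in 49.3% of all genes tested, 12.8% with M3 higher and 36.6% with M3 lower. The difference of Iigp1 was 2.89 (SE 0.40, limma adjusted p = 0.0254), and its MNC mean was 14.7. Tgtp1, another GTPase of this family, rose from 0.40, 0.24 and 0.30 to 2.11, 5.28 and 4.83 FPKM, by 1.89 (SE 0.26, limma adjusted p = 0.0254). It shares much sequence with Tgtp2, which rose by 1.55, so the split of reads between them is uncertain. The guanylate-binding proteins Gbp2 (by 1.72, SE 0.29, limma adjusted p = 0.0272) and Gbp4 (by 1.79, SE 0.47, adjusted p = 0.0406) also rose. M3 replicate 1 was the lowest M3 library for Iigp1, Tgtp1, Gbp2 and Gbp4, and it still lay above every Con library.

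The promoters of these genes are shown because, of the lists with 8 or more genes tested, this held the largest share of called members. RefSeq promoter windows of GRCm38.p6, from 250 bases before to 50 after the transcription start site, were at hand for 8 of the 13 GTPases tested. The interferon-stimulated response element core, searched as GAAANNGAAA on both strands, was in the windows of 8 of 8, including Gbp5, which was not called (limma adjusted p = 0.068). The same letters were in 3.99% of all genes with a window and in 3.47% of the genes tested that had one. The second motif searched, the interferon gamma activated site core TTCNNNGAA, was in 5 of 8, against 8.43% of the genes tested. The cAMP response element, the third motif searched, was in 0 of 8 and in 0 of 25 elongating spermatid genes, against 3.45%. Each sequence below gives the 140 bases that end just before the start site, 5′ to 3′ in the direction of transcription, with matches to GAAANNGAAA, or to its reverse complement TTTCNNTTTC, in capitals. They lie at chr3:142620523-142620662 on the plus strand for Gbp2, chr3:142559904-142560043 (plus) for Gbp3 and chr3:142530196-142530335 (plus) for Gbp7. Those of the other family are at chr11:48871421-48871560 on the minus strand for Irgm1, chr11:58199416-58199555 (plus) for Igtp, chr11:48992247-48992386 (minus) for Tgtp1 and chr11:49064213-49064352 (minus) for Tgtp2. Gbp3, Gbp7, Irgm1, Igtp and Tgtp2 were added to the named genes after their values were seen, as the remaining called members with a window.
Gbp2: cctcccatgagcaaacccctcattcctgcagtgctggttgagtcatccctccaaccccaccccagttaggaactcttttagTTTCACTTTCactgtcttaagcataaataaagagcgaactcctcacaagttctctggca
Gbp3: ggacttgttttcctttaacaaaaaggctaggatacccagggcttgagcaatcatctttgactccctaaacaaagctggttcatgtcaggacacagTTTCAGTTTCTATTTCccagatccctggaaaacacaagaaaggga
Gbp7: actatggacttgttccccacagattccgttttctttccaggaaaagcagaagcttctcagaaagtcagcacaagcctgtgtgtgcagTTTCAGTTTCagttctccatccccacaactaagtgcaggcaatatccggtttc
Irgm1: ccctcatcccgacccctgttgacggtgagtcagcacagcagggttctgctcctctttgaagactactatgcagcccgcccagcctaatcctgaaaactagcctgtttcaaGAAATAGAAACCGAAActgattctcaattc
Igtp: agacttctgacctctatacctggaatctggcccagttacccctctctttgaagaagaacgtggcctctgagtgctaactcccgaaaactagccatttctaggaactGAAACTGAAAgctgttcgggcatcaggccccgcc
Tgtp1: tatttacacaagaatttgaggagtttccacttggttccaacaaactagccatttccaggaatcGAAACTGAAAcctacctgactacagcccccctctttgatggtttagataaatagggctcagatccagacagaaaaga
Tgtp2: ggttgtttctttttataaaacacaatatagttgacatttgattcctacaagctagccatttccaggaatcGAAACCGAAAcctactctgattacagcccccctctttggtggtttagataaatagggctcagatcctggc
In Gbp3 and Irgm1 the capitals cover 2 overlapping matches. The match began 59 bases before the start site in Gbp2, 34 in Igtp, 77 in Tgtp1 and 70 in Tgtp2. Of these genes, Irgm1 had 1.47, 1.55 and 1.80 FPKM in Con and 4.28, 8.54 and 8.20 in M3, with no overlap, a difference of 1.57 (SE 0.23, limma adjusted p = 0.0254). Igtp went from 0.71, 0.88 and 0.67 to 1.92, 4.52 and 3.84 FPKM, by 1.29 (SE 0.23, limma adjusted p = 0.0279). Gbp3 and Gbp7 rose by 1.02 and 0.80 (limma adjusted p = 0.0377 and 0.0465). A match describes letters in a window and is not evidence of binding. Among the tested members with a window, GAAANNGAAA was in 8 of 20 antiviral genes, 5 of 18 class I genes and 1 of 25 elongating spermatid genes. It was in 1 of 5 class II genes, 1 of 9 chemokine and cytokine genes and 0 of 25 round spermatid genes.

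Calls among antigen presentation genes were upward, beside 7.01% higher and 15.1% lower over all genes tested. The share higher over all genes was 11% after centring and 5.08% without M3 replicate 3. In class I presentation, which shows peptides from inside the cell to cytotoxic T cells, 5 of 21 tested members rose and 0 fell (8 and 0 after centring, 5 and 0 without M3 replicate 3), with a median of 0.28. The mean difference was above 0 in 15 of the 21, and 5 of the 21 averaged under 1 FPKM in Con. H2-D1, a class I heavy chain, had 15.1, 14.8 and 13.5 FPKM in Con and 41.1, 54.4 and 47.5 in M3, a difference of 1.65 (SE 0.11, limma adjusted p = 0.0128). The lowest M3 library was far above the highest Con library, and above the 3 MNC libraries, which averaged 36.9 FPKM. B2m, the light chain of class I, had 53.5, 57.9 and 43.7 FPKM in Con and 117.7, 192.6 and 106.2 in M3, with no overlap, and rose by 1.37 (SE 0.23, limma adjusted p = 0.027). Its MNC mean was 238.6. H2-T23 rose by 0.89 (limma adjusted p = 0.0238) and Psmb8, a subunit of the immunoproteasome that cuts peptides for class I, by 1.68 (limma adjusted p = 0.0254). The class I heavy chains are near-identical copies that vary between mice, so the values of H2-D1 and H2-T23 are uncertain.

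In class II presentation, used by macrophages, dendritic cells and B cells, 4 of 8 tested members rose and 0 fell (4 and 0 after centring and without M3 replicate 3), with a median of 1.63. Higher over all genes tested were 7.01%, 11% after centring and 5.08% without M3 replicate 3. The 13 genes of the list summed to 32.0 to 51.1 FPKM in Con and 104.2 to 206.5 in M3. Cd74, the invariant chain that guides class II molecules, had 15.4, 8.74 and 9.75 FPKM in Con and 45.2, 87.0 and 54.2 in M3. It rose by 2.34 (SE 0.28, limma adjusted p = 0.0238) without overlap, and its MNC mean was 111.5. H2-Aa and H2-Ab1, the alpha and beta chains of a class II molecule, rose by 2.34 (SE 0.41, limma adjusted p = 0.0279) and 2.00 (SE 0.32, limma adjusted p = 0.0258). Con replicate 1 was the highest Con library for Cd74, H2-Aa and H2-Ab1. Ctss, a protease that trims the invariant chain, rose by 0.68 (limma adjusted p = 0.0314).

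Among antiviral interferon-stimulated genes the calls were again in the upward direction. Of 25 tested, 4 rose and 0 fell, 9 and 0 after centring and 1 and 0 without M3 replicate 3, with a median of 0.24, and 28 of 37 in the table had the higher mean in M3. Over all genes tested 7.01% were higher and 15.1% lower. The share higher over all genes was 11% after centring and 5.08% without M3 replicate 3, against 4% of this list without that library. Of the 25, 7 averaged under 1 FPKM in Con and passed the filter through the injected groups. Ifit3, which binds foreign RNA, had 0.86, 0.78 and 1.02 FPKM in Con and 1.38, 2.46 and 1.92 in M3, a rise of 0.62 (limma adjusted p = 0.0358), and an MNC mean of 4.50. Rtp4 and Oasl2 rose by 0.61 and 0.48 (limma adjusted p = 0.0321 and 0.0355), and Ifitm3, which blocks virus entry, by 0.48 (limma adjusted p = 0.0459). The median of the list was 0.74 between MNC and Con and -0.47 between M3 and MNC. Among receptors, kinases and transcription factors of the pathway, 3 of 16 rose and 3 fell (1 and 0 without M3 replicate 3). Irf1, a transcription factor of the interferon response, had 2.23, 2.39 and 1.82 FPKM in Con and 3.66, 7.42 and 6.38 in M3, with no overlap, and rose by 1.08 (SE 0.22, limma adjusted p = 0.0296). Irf7, another factor of this family, rose by 0.58 (limma adjusted p = 0.0322). Jak1, a kinase at the receptors, fell by 0.41 (limma adjusted p = 0.0404), and neither Jak1 nor the other 2 that fell were called lower after centring. Ifng, chosen after its values were seen, was listed at 0 in all Con libraries and at 0.07, 0.10 and 0.10 FPKM in M3.

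**Figure D3:**
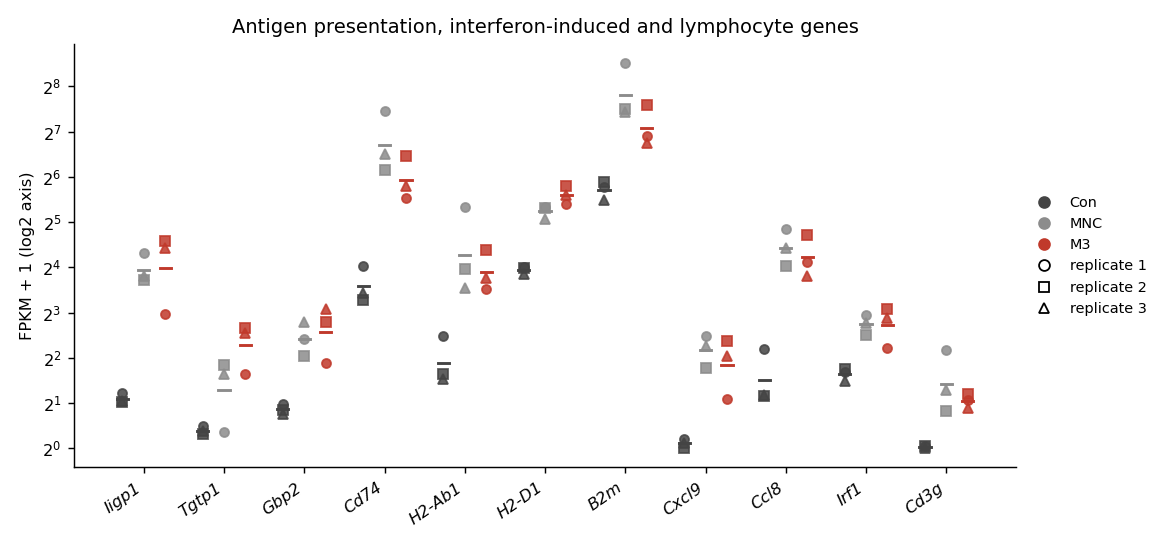
FPKM + 1 on a log2 axis in the Con, MNC and M3 libraries for 11 genes of interferon response, antigen presentation, chemokines and T cells, with the mean of the log2 values as a bar. In each gene the 3 M3 libraries lie above the 3 Con libraries, and M3 and MNC overlap in all but H2-D1.

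Chemokines, which call white blood cells into tissue, rose in 7 of 13 tested members and fell in 0 (9 and 0 after centring, 6 and 0 without M3 replicate 3), with a median of 0.69, and 6 of the 13 averaged under 1 FPKM in Con. Called higher over all genes tested were 7.01%, 11% after centring and 5.08% without M3 replicate 3. Ccl8, which attracts monocytes, had 3.54, 1.23 and 1.27 FPKM in Con and 16.3, 25.4 and 13.1 in M3, a rise of 2.71 (SE 0.34, limma adjusted p = 0.0238). The groups did not overlap, and the MNC mean was 21.2. Cxcl9 and Cxcl10, which attract activated T cells, rose by 1.73 and 1.72 (limma adjusted p = 0.0279 and 0.0414), from at most 0.15 FPKM in each Con library. Ccl5 rose by 1.51 (limma adjusted p = 0.028). Ccl21a, chosen after its values were seen, had 20.9, 21.2 and 20.6 FPKM in Con, 33.4, 33.4 and 36.3 in M3 and a mean of 21.4 in MNC. It rose against Con by 0.69 (SE 0.06, limma adjusted p = 0.0238) and was not called against MNC (difference 0.73, limma adjusted p = 0.518). Saa3, an acute phase protein, rose by 2.12 (SE 0.46, limma adjusted p = 0.0318) and Cfb, of the alternative complement pathway, by 1.09 (limma adjusted p = 0.0238). Cfb was the only 1 called of 11 complement genes tested (9.09%), near the 7.01% called higher over all genes. The median of the 11 was 0.10.

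White blood cell markers did not all move alike. Of 9 tested lymphocyte and NK cell genes 4 rose and 0 fell (4 and 0 after centring, 3 and 0 without M3 replicate 3), and 7 of the 9 averaged under 1 FPKM in Con. The share called higher over all genes tested was 7.01%, 11% after centring and 5.08% without M3 replicate 3. Of all 22 listed members 21 had the higher mean in M3, and the list summed to 11 to 11.9 FPKM in Con and 17.2 to 27.1 in M3. Cd3g, a chain of the T cell receptor complex, had 0.04, 0.04 and 0 FPKM in Con and 1.09, 1.28 and 0.84 in M3, a rise of 1.01 (SE 0.11, limma adjusted p = 0.0238). Its levels stayed near 1 FPKM and did not overlap those of Con. Nkg7 and Gzma, of cytotoxic cell granules, rose by 1.20 and 0.93 (limma adjusted p = 0.0279 and 0.0321), and Cd2 by 0.91 (limma adjusted p = 0.0436). The B cell marker Ms4a1 was between 0.14 and 0.32 FPKM in all 6 libraries. S100a9, abundant in neutrophils, was listed at 0, 0 and 0.09 FPKM in Con and had 2.99, 0.88 and 6.17 in M3, a rise of 1.87 (SE 0.44, limma adjusted p = 0.0343), and its MNC mean was 0.123. It was the only tested member of 12 neutrophil genes, of which 11 had the higher mean in M3.

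Of 26 tested macrophage genes 4 rose and 5 fell (7 and 2 after centring, 3 and 3 without M3 replicate 3), beside 7.01% higher and 15.1% lower over all genes tested. Of the 26, 4 averaged under 1 FPKM in Con and passed the filter through the injected groups. Ptprc, the white blood cell surface protein CD45, rose by 0.73 and Ccr2, a receptor of inflammatory monocytes, by 0.92 (limma adjusted p = 0.0281 and 0.0296). Folr2, a gene of resident macrophages, had 4.26, 4.42 and 3.36 FPKM in Con and 1.32, 1.95 and 2.02 in M3, and fell by 0.86 (SE 0.14, limma adjusted p = 0.0261). Cd5l, secreted by tissue macrophages, had 2.41, 0.63 and 3.67 FPKM in Con and 0.12, 0.06 and 0.20 in M3. It fell by 1.40 (SE 0.36, limma adjusted p = 0.0395) but was not called after centring (adjusted p = 0.0782) or without M3 replicate 3 (adjusted p = 0.071). The 3 M3 libraries lay below all 12 others of the series. Adgre1, the F4/80 antigen, had 2.80, 3.14 and 2.58 FPKM in Con and 2.50, 3.56 and 2.64 in M3, and these overlapped. Cd68 also overlapped, at 3.52, 4.39 and 3.11 FPKM in Con and 2.10, 4.13 and 4.05 in M3. Csf1r had 5.09, 5.86 and 4.17 FPKM in Con and 3.02, 3.76 and 3.47 in M3, lower without overlap. Of all genes tested 36.6% were lower in M3 without overlap.

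More late spermatid genes were called higher in M3 than not. Of 29 elongating spermatid genes tested, 17 rose and 0 fell (17 and 0 after centring, 9 and 0 without M3 replicate 3), with a median of 0.63, and 22 were higher in M3 without overlap. Over all genes tested 7.01% were called higher, and 12.8% were higher in M3 without overlap. These are the shares to set beside the list. The FPKM of the list summed to 17200 to 29840 in Con and 34940 to 40490 in M3, and to 33240 to 40220 in MNC. Smcp, a protein of the sperm mitochondrial capsule, had 980, 827 and 1292 FPKM in Con and 2061, 2166 and 2385 in M3, a rise of 1.11 (SE 0.16, limma adjusted p = 0.0254). Its groups did not overlap, and MNC averaged 2268. Prm2, a protamine that packs sperm DNA, had 3060, 1915 and 4656 FPKM in Con and 5832, 6146 and 9231 in M3, a rise of 1.20 (SE 0.34, limma adjusted p = 0.0467) that was not called after centring (adjusted p = 0.0536). Con itself spread widely, with replicate 2 lowest and replicate 3 highest for both genes. Spata18 rose by 0.94 (SE 0.17, limma adjusted p = 0.0279). Zp3r, a protein of the sperm acrosome, had 0.34, 0.23 and 0.08 FPKM in Con and 7.25, 33.1 and 70.7 in M3, a rise of 4.49 (SE 0.71, limma adjusted p = 0.0258), the largest of all called genes with a name. It was 7.55, 38.4 and 65.9 FPKM in MNC and only 0.15 FPKM, a Con level, in M5 replicate 1. Zp3r averaged under 1 FPKM in Con and passed the filter through the injected groups. The gene 1700034J05Rik had 2.73, 2.55 and 2.04 FPKM in Con and 66.3, 13.6 and 72.5 in M3 (difference 3.60, SE 0.59, limma adjusted p = 0.0267). Tex52, which is not among the 29 genes of the list, was listed at 0 in all Con libraries. It had 1.56, 3.15 and 2.46 FPKM in M3 (limma adjusted p = 0.0238) and passed the filter through the injected groups.

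Earlier germ cells were examined in 3 lists. Among round spermatid genes 10 of 29 rose and 0 fell (13 and 0 after centring, 7 and 0 without M3 replicate 3), with a median of 0.15. Between MNC and Con the median was 0.10. Spaca7, of the acrosome, rose by 0.57 (SE 0.11, limma adjusted p = 0.0281), and Pgk2, the sperm form of phosphoglycerate kinase, by 0.54 (SE 0.13, limma adjusted p = 0.0344). Catsper3, a subunit of the sperm calcium channel, rose by 0.48 and Tssk2, a testis kinase, by 0.40 (limma adjusted p = 0.0313 and 0.0341). Beside 7.01% higher and 15.1% lower over all genes tested, the other lists were near the background. Of 30 spermatocyte genes 2 rose and 5 fell (1 and 6 without M3 replicate 3), and none was called lower after centring. Their median was -0.19, and -0.21 between MNC and Con. Piwil1, which with small RNAs silences transposons, had 134, 136 and 142 FPKM in Con and 107, 110 and 92.6 in M3, and fell by 0.41 (SE 0.08, limma adjusted p = 0.0281). Of 18 spermatogonial genes 2 fell and 0 rose (1 and 0 without M3 replicate 3), and 0 were called after centring by limma. These were Stra8, needed for entry into meiosis, which fell by 0.45 (limma adjusted p = 0.0324), and Dmrt1, which fell by 0.30 (limma adjusted p = 0.0469). The spermatogonial median was -0.25, and -0.20 between MNC and Con. The study assayed 4 spermatogenesis proteins after M5 knockdown against its vector control, with FSCN1 in its phosphorylated form. Among their transcripts in M3 against Con, only Pgk2 was called, and the median of the 4 was 0.36. After centring 2 were called higher, and without M3 replicate 3 limma called 0.

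**Figure D4:**
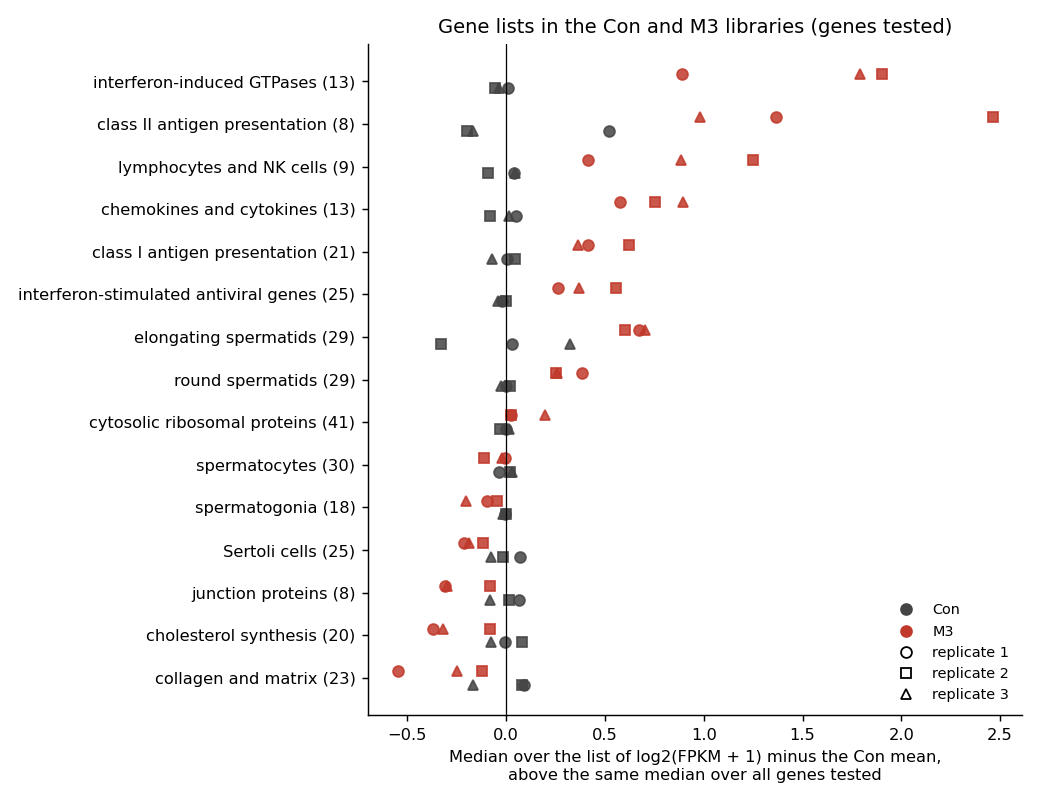
Median over each list (tested members in brackets) of log2(FPKM + 1) minus the Con mean, above the same median over all genes tested, for each Con and M3 library. Immune and late spermatid lists lie right of 0 in all 3 M3 libraries, and Sertoli, junction, cholesterol and matrix lists lie left of it.

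Calls among Sertoli cell genes were downward, on a background where 15.1% of all genes tested were lower and 7.01% higher. Of 25 Sertoli cell genes 11 fell and 0 rose (6 and 0 without M3 replicate 3), with a median of -0.31. After centring 2 fell, Inha and Amh, and 1 rose. Inha, the alpha chain of the hormone inhibin, had 101, 103 and 85.5 FPKM in Con and 38.6, 56.9 and 37.4 in M3, and fell by 1.13 (SE 0.17, limma adjusted p = 0.0256) without overlap. Amh, anti-Müllerian hormone, had 2.55, 2.13 and 1.96 FPKM in Con and 0.82, 0.74 and 0.84 in M3, and fell by 0.83 (SE 0.10, limma adjusted p = 0.0238). MNC averaged 56.7 FPKM for Inha and 1.64 for Amh. Trf, the iron carrier transferrin, fell by 0.80 (limma adjusted p = 0.0469) and Mro by 0.59 (limma adjusted p = 0.0319). Sox9, which specifies Sertoli cells, had 5.33, 4.87 and 4.69 FPKM in Con and 3.33, 3.44 and 4.08 in M3 and fell by 0.37 (limma adjusted p = 0.0371), a call lost after centring (adjusted p = 0.159).

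The list of junction proteins held the genes of those the study assayed as protein after M5 knockdown, and Ctnnb1, beta-catenin. The catenin the study assayed was delta 1 catenin (Ctnnd1). Of the 8 tested transcripts of the list 4 fell and 0 rose (2 and 0 after centring, 3 and 0 without M3 replicate 3), with a median of -0.34. Over all genes tested 15.1% were lower, 1.77% after centring and 9.38% without M3 replicate 3. Without Ctnnb1, a count added after the values were seen, 3 of 7 fell, with a median of -0.34, 1 of them after centring and 2 without M3 replicate 3. Gja1, the gap junction protein connexin 43, had 22.1, 24 and 17.5 FPKM in Con and 11.8, 14.4 and 10.9 in M3, and fell by 0.73 (SE 0.14, limma adjusted p = 0.0283). Ctnnb1 went from 45.8, 49.8 and 44.7 to 33.7, 37.2 and 34.7 FPKM, a fall of 0.40 (SE 0.07, limma adjusted p = 0.0272). Neither gene overlapped between groups, and both calls held after centring. Ctnnd1 fell by 0.45 and Cldn11, the claudin of the blood-testis barrier, by 0.34 (limma adjusted p = 0.0288 and 0.0475), and both were lost after centring. The medians of this list were -0.32 between MNC and Con and -0.04 between M3 and MNC. Of Phldb2 and its partners at the cell cortex, 4 of 9 fell, led by Kif21a at 0.41 (limma adjusted p = 0.0335), followed by Flna, Ppfia1 and Clasp2, and limma called 0 after centring and 2 without M3 replicate 3.

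Of 18 Leydig cell genes 3 fell and 1 rose (1 and 1 after centring, 2 and 1 without M3 replicate 3), with a median of -0.40. These shares were near those over all genes tested, 15.1% lower and 7.01% higher, so the single genes are given as such. Lhcgr, the receptor for luteinizing hormone, had 11.4, 12.4 and 8.85 FPKM in Con and 1.57, 4.02 and 3.47 in M3, and fell by 1.61 (SE 0.26, limma adjusted p = 0.0259), also after centring. All M3 libraries lay below all Con libraries, and the MNC mean was 6.47. Cyp17a1, an enzyme of androgen synthesis, had 277, 342 and 240 FPKM in Con and 53.7, 159 and 140 in M3, and fell by 1.40 (SE 0.40, limma adjusted p = 0.0481), which centring lost (adjusted p = 0.0775). Ptgds, prostaglandin D synthase, rose by 1.12 (SE 0.22, limma adjusted p = 0.0283) and Stard4, a cholesterol carrier, fell by 0.37 (limma adjusted p = 0.047). The defining hormone gene Insl3 had 993, 1328 and 1052 FPKM in Con and 488, 1140 and 1383 in M3, and Star, which delivers cholesterol for steroid synthesis, 28.4, 25.8 and 26.8 against 7.28, 22.3 and 27.1. M3 replicate 1 was thus low in Cyp17a1, Insl3 and Star, and the groups overlapped in the last 2. Relative to the median of all genes, the Leydig list was at -0.27, and at -0.10 without M3 replicate 1.

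Cholesterol synthesis genes fell in 7 of 20 tested members and rose in 0 (3 lower and 1 higher after centring, 3 lower without M3 replicate 3), with a median of -0.41. Over all genes tested 15.1% were lower, 1.77% after centring and 9.38% without M3 replicate 3. Dhcr7, the last enzyme of the pathway, had 15.4, 16.1 and 11.3 FPKM in Con and 5.47, 9.42 and 6.13 in M3, and fell by 0.95 (SE 0.21, limma adjusted p = 0.0319). The groups did not overlap, nor did those of Sc5d, which fell by 0.80 (SE 0.10, limma adjusted p = 0.0254). Insig1, a sensor of sterol, and Hsd17b7 fell by 0.59 and 0.54 (limma adjusted p = 0.034 and 0.0412). The median of this list was -0.24 between MNC and Con.

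Matrix and contractile genes were examined in 2 lists, beside 7.01% higher and 15.1% lower over all genes tested. Lower over all genes were 1.77% after centring and 9.38% without M3 replicate 3. Of 23 collagen and matrix genes 7 fell and 0 rose (4 and 0 after centring, 4 and 0 without M3 replicate 3), with a median of -0.50. All of the 7 but Sparc encode chains of the basement membrane. Col4a1, a type IV collagen, had 10.7, 12.2 and 10.3 FPKM in Con and 4.05, 5.74 and 4.27 in M3, and fell by 1.09 (SE 0.13, limma adjusted p = 0.0238). Lamb1, a laminin chain, had 6.37, 6.27 and 5.07 FPKM in Con and 2.38, 2.93 and 2.93 in M3, and fell by 0.88 (SE 0.11, limma adjusted p = 0.0238). Neither overlapped, and MNC lay between, at 6.89 and 3.57 FPKM. Col18a1 and Sparc fell by 0.79 and 0.65 (limma adjusted p = 0.0376 and 0.0288). Of 13 myoid and smooth muscle genes 7 fell and 1 rose (2 and 1 after centring, 5 and 0 without M3 replicate 3). Their median was -0.34, and -0.18 between MNC and Con. Acta2, smooth muscle actin, had 26.2, 25.8 and 23.8 FPKM in Con and 16.2, 16.1 and 13.8 in M3, and fell by 0.69 (SE 0.08, limma adjusted p = 0.0238). Cnn1 and Smtn, regulators of contraction, fell by 0.56 and 0.55 (limma adjusted p = 0.0365 and 0.0349), and Myh11, smooth muscle myosin, by 0.48 (limma adjusted p = 0.0267).

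**Figure D5:**
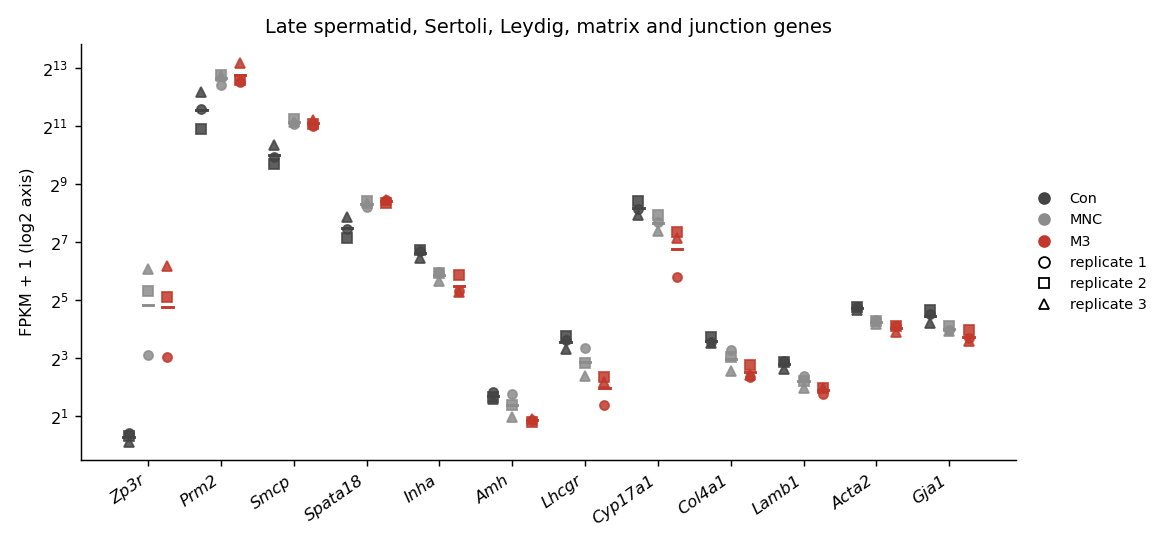
FPKM + 1 on a log2 axis in the Con, MNC and M3 libraries for 4 late spermatid genes and 8 genes of Sertoli, Leydig, matrix, contractile and junction function, with the mean of the log2 values as a bar. The spermatid genes lie higher and the others lower in M3 than in Con, with MNC near M3 or between.

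Several secreted and small proteins were among the largest falls. Cstdc2 fell by 1.87 (SE 0.33, limma adjusted p = 0.0279), from 8.16, 11.5 and 12.4 to 0.91, 2.48 and 3.72 FPKM. Igfbp2, which binds insulin-like growth factors, fell by 1.42 (SE 0.28, limma adjusted p = 0.0283), from 15.4, 21.8 and 12.8 to 3.37, 6.82 and 6.85 FPKM. Groups of both were apart, as the naming rule required. Mt3, a metallothionein, fell by 1.64, Htra1, a secreted protease, by 1.37, Wfdc1 by 1.26 and Aebp1 by 1.16 (limma adjusted p = 0.0345, 0.029, 0.0238 and 0.0254). Gm7233 and Gm8127 fell by 1.63 and 1.54 (limma adjusted p = 0.0254 and 0.0413) and resemble each other, so their values are uncertain. Among transcripts with no name, BGI_novel_G002098 had 1.40, 1.34 and 1.24 FPKM in Con and 6.28, 67.8 and 85.2 in M3, with an MNC mean of 1.31. BGI_novel_G000367 also rose (by 2.87), while BGI_novel_G001824 and BGI_novel_G001311 fell by 2.25 and 2.16.

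Genes downstream of the receptor were called in both directions, beside 7.01% higher and 15.1% lower over all genes. Of 27 effectors of Gq and calcium, 7 fell and 1 rose, after centring 0 fell and 2 rose, and 3 fell and 0 rose without M3 replicate 3. Their median was -0.15, and -0.03 between MNC and Con. Gnaq, the Gq alpha subunit, fell by 0.37 (limma adjusted p = 0.034) and Itpr1, the calcium release channel, by 0.35 (limma adjusted p = 0.034). Rgs2, which shuts off Gq, fell by 0.52 (limma adjusted p = 0.0355) and Prkcd, a protein kinase C, rose by 0.67 (limma adjusted p = 0.0325), while of these Prkcd alone was called after centring. Of 7 genes of acetylcholine handling Chrne, a nicotinic receptor subunit, rose by 0.26 and Slc44a2, a choline transporter, fell by 0.31 (limma adjusted p = 0.0369 and 0.0438). After centring only the rise of Chrne was called, and without M3 replicate 3 limma called 0 of the 7.

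The remaining lists held housekeeping, stress, sensor and vessel genes. Of 41 ribosomal protein genes 1 fell (Rpl4, by 0.18), of 34 respiratory chain genes 1 (Sdhc, by 0.38), and of 24 proteasome genes 5 fell and 1, Psma6, rose. In the stress lists 4 of 15 heat shock and unfolded protein genes fell, led by Hspa8 at 0.41, 3 of 14 immediate early genes fell, led by Jund at 0.53, and 2 of 19 p53 and cell death genes fell, Sesn2 and Sesn1, while Mlkl, of necroptosis, rose by 0.58. Of 28 axoneme genes 5 fell, led by Dnah2 at 0.43. Of 12 nucleic acid sensors Zbp1 rose by 1.03 and Irf3 fell by 0.28. Among the 12, 3 averaged under 1 FPKM in Con and passed the filter through the injected groups. In endothelium 1 of 13 rose, Ly6a by 1.6 (limma adjusted p = 0.0238), which interferon also raises, and 1 fell, Eng. These shares stood beside 7.01% higher and 15.1% lower over all genes tested. After centring, of these falls those of Sdhc and Sesn2 were called. Those called higher were then 2 axoneme, 2 endothelial, 1 sensor, 1 ribosomal, 1 proteasome and 1 p53 gene. Without M3 replicate 3 there were 6 falls in the proteasome list, 5 each in the respiratory chain and axoneme lists, 3 each in the ribosomal and heat shock lists and 1 each in the immediate early and p53 lists, with 1 rise each in the proteasome and endothelial lists and 0 calls by limma among the sensors. In 9 of the 37 lists the median was below 0 before and above 0 after centring, and these were acetylcholine handling, Gq effectors, sensors, interferon signalling, endothelium, p53, ribosome, respiratory chain and axoneme.

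Markers of tissue beyond the testis were checked beside these results. The epididymis gene Crisp1 had 32.3, 2.86 and 12.2 FPKM in Con and 19.4, 5.03 and 0.68 in M3, against 0.03 in each MNC library, while Lcn5 was listed at 0 in 5 of these 6 libraries. The 18 epididymis genes summed to 254.5 to 321.1 FPKM in Con and 290.5 to 362.3 in M3, and 1 of 8 tested, Cst8, rose by 0.60. The median of the 8 was -0.49, 13 of the 18 had the lower mean in M3, and without M3 replicate 3 limma called 0 higher and 1 lower. Adipocyte genes gave 0 calls by limma among 9, with Fabp4 at 19.2, 10.5 and 2.16 FPKM in Con and 1.78, 3.75 and 3.67 in M3, and a list sum of 24.4 to 79.3 against 20.7 to 31.1. Red blood cell genes gave 0 calls among 7, with Hba-a1 at 43.1, 26.6 and 60.0 FPKM in Con and 14.7, 43.6 and 84.3 in M3. Hbb-bs, a beta globin gene with near-identical copies, had 0, 0.08 and 0.09 FPKM in Con and 0.18, 13.8 and 1.54 in M3, without overlap and not called (difference 1.75, limma adjusted p = 0.155), and was at 10.2, 1.53 and 0.49 in MNC. The part of epididymal, adipose and blood cells in the results was not tested. The testis markers themselves were present in all 6 libraries, among them Sycp3 (132 to 163 FPKM), Prm1 (2951 to 8076) and Wt1 (12.5 to 18.3).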

How the data were processed

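RNA sequencing of mouse testis was compared between 3 M3 and 3 Con libraries, with groups and replicate numbers from the sample titles. The titles say testis, although the extraction protocol mentions sperm. Per the study's methods, 1 testis per mouse was used and reads were mapped with SOAPaligner 2.20. The submitters' processing notes name the build mm10. The authors deposited 1 table of FPKM values to 2 decimals, with no counts, so a count test was not used, and depth, with the counting error of low genes, is unknown. Summed FPKM were 470243 to 483232 in Con and 497317 to 513817 in M3, and steps between low values gave relative depths of 0.954 to 1.031 over the 15 libraries, limited by the rounding.

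Of 23510 IDs, 21143 (89.9%) matched a RefSeq symbol, and 2208 are unnamed BGI_novel IDs. Values were taken as log2(FPKM + 1), which understates changes of low genes. A difference is the M3 minus the Con mean on that scale. Genes with a mean of 1 FPKM or more over all 15 libraries were tested with limma 3.58.1 (lmFit, eBayes with trend) in R 4.3.3, with only the 2 groups in the fit, two-sided, with Benjamini-Hochberg adjustment over the genes tested. This took the place of the study's count-based test. Genes under the filter named by rule were compared by exact permutation. The fit was tested on simulated data. Python 3.11.15, pandas 2.3.3, numpy 2.4.6 and scipy 1.17.1 were also used. Promoter windows and coordinates are from RefSeq GRCm38.p6, the same assembly as mm10.

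Genes named are the 12 called genes with the largest difference in each direction that have a symbol and groups that do not overlap, up to 4 called members of each list (where none was called, up to 3 by level), at most 2 unnamed IDs per direction, the muscarinic receptors, the 6 genes by which M3 replicate 3 stood apart most, and cell type markers. Names outside these were chosen after their values were seen (Adam21, Coil, Ifng, Ccl21a, and the added GTPases). A gene that the rule names is not reported here. The members, the 37 gene lists and the tests were chosen with earlier results of these data known. Alternatives were a pseudocount of 0.1, filters of 0.1, 5 and none, centring, quantile normalization, no trend, all 5 groups in the fit, a replicate block, a stricter call, the direction against MNC, each library left out in turn and, chosen after seeing the data, removal of the trend with GC content.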

Additional observations from a re-analysis of the deposited data

Results flagged for a closer look

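Cd5l, which tissue macrophages secrete, was the 1 gene whose difference from Con differed between M3 and MNC by a test of the difference itself. M3 had 0.12, 0.06 and 0.20 FPKM, while Con had 2.41, 0.63 and 3.67 and MNC averaged 4.39, M1 3.64 and M5 4.44. The log2 difference between M3 and MNC was -2.26 (SE 0.11, limma adjusted p = 0.00512), with 3 of 3 M3 libraries lower. The call was lost in the fit of all 5 groups, with the replicate block (lowest limma adjusted p over all genes 0.429), and without M3 replicate 2, M3 replicate 3, MNC replicate 1 or MNC replicate 3.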

How the results depend on the processing

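The 3210 genes called between M3 and Con became 3159 with a pseudocount of 0.1, 3638 with all 5 groups in the fit, 2387 and 2907 with filters of 0.1 and 5, 3122 without the trend and 2565 with the GC trend removed. It fell to 1847 after centring, 1626 with no filter and 1530 with quantile normalization, and to 0 at an adjusted p of 0.001 or less with a log2 difference of 1 or more. The same direction against MNC was seen in 2423, and 353 of these had an unadjusted p under 0.05 by limma. The same M3 libraries enter both differences, so part of this agreement is built in. Between MNC and Con, 3148 of the 3210 had the same direction at any size, and that comparison shares the Con libraries. Leaving out 1 library gave 0 to 2695. With the replicate block limma called 0 genes against Con (5871 at an unadjusted p under 0.05, lowest adjusted p 0.0586) and 0 against MNC (1022). M3 and Con libraries with the same replicate number correlated at r = 0.058, 0.0079 and 0.089 in their deviations from the group mean. Those with different numbers correlated at -0.073 to 0.031. The labels give no batch, and whether the replicate numbers mark one was not tested. The 1 gene called against MNC became 0 with all 5 groups in the fit, and 0 to 14 with 1 library left out. The Chrm3 difference ranged from 0.023 to 0.070 with 1 library left out and was 0.283 with a pseudocount of 0.1. Of 122 called named genes, 76 were also called after centring and 69 without M3 replicate 3, and none changed sign in those of the 16 alternatives that tested it. The other filters, the fit without trend, the fit of all 5 groups and the replicate block leave the difference itself unchanged. The remaining alternatives use libraries on which the genes were called, so kept signs are no separate support. GC content was known for 92.08% of the genes tested, and the difference correlated with it at a Spearman rho of -0.144 across genes, which are not independent. With 3 libraries per group, unknown depth and values to 2 decimals, changes of genes near 0 FPKM were not measurable. The calls of these genes of the report were lost without M3 replicate 3: BGI_novel_G001824, BGI_novel_G002098, Catsper3, Ccr2, Cd2, Cd5l, Chrne, Clasp2, Cldn11, Col18a1, Cst8, Ctss, Cxcl10, Cyp17a1, Dhcr7, Dmrt1, Eng, Flna, Gbp3, Gbp4, Gbp7, Gnaq, Hsd17b7, Hspa8, Htra1, Ifit3, Ifitm3, Insig1, Irf1, Irf3, Itpr1, Jak1, Mlkl, Mt3, Oasl2, Pgk2, Prkcd, Prm2, Rgs2, Rpl4, Saa3, Sesn1, Slc44a2, Smtn, Sparc, Stard4, Trf and Zbp1.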

Other observations

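Coil, which encodes coilin, a protein of nuclear Cajal bodies, had 53.2, 51.2 and 56.9 FPKM in Con, and 1.40, 47.6 and 4.73 in M3. In the 9 libraries of MNC, M1 and M5 it did not exceed 1.06 FPKM. The difference between M3 and Con was -2.65 (SE 1.00) and was not called (limma adjusted p = 0.092). M3 replicate 2 was thus near the Con level, while it had M3 levels of Iigp1 (23 FPKM) and Cd74 (87.0 FPKM). Kpna2, an importin, chosen after its values were seen, had 1.20 to 1.88 FPKM in Con, 1.16, 1.38 and 10.4 in M3, 112, 9.39 and 87.6 in MNC and 8.82 to 9.49 in M5. The cause of these differences within groups was not tested.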
